A study of Mus musculus with 48 samples.

Results

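Skeletal stem cells (SSC) and pre-bone, cartilage and stromal progenitors (pBCSP) are neighbouring populations of the early skeletal lineage, and their RNA is compared here in 4 libraries, 2 of SSC WT and 2 of pBCSP WT, out of 48 samples in the series, 12 of which are RNA libraries. The 4 were chosen by their labels alone, and all genes entered: of 55487 genes in the count table, 16264 had enough reads to be tested. Limb cells were taken at postnatal day 3 from C57BL/6 mice that carried floxed Ptip alleles (genotype Ptipf/f) and no Cre, a state called WT here and shared by every library compared unless KO is written. The third WT population, bone, cartilage and stromal progenitors (BCSP, 2 libraries), is given for its levels. KO libraries (Ptipf/f;Col2a1-cre, 2 each of SSC and pBCSP) carry a Cre transgene driven by the promoter of the cartilage collagen gene Col2a1, so deletion is limited to cells with a history of its activity. Nothing in the labels says that replicates are separate animals, so p-values measure only the spread between these libraries. The replicates of each WT population differed in the X-linked gene Xist, which was read in replicate 1 and not in replicate 2. How much of the spread is technical was not tested.

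In the published map of the mouse skeletal lineage, SSC sit at the top and give rise to pBCSP, then to BCSP, and from there to cartilage, bone and stroma. The populations are separated by surface proteins: all carry the integrin AlphaV and lack blood, red cell and endothelial markers, SSC carry CD200, pBCSP lack it, and BCSP carry CD105. The labels give the population names and not the gates.

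The WT libraries held 15495915 to 22670899 counts, with a read in 21864 to 23160 genes and 0.6995% to 0.8379% of counts from mitochondrially encoded genes. A count of 0 allows up to 3 counts, or 0.132 to 0.194 CPM (counts scaled to a common library depth), by counting error alone. Levels are CPM on TMM-scaled library sizes. They are not per length and so are compared between libraries and not between genes. Replicates differed by 0.44 log2 (SSC WT) and 0.40 log2 (pBCSP WT) at the median gene. The Ptip gene itself, now named Paxip1, was at 13.9 and 11.99 CPM in SSC WT and at 14.74 and 7.67 CPM in pBCSP WT. Its groups overlapped, with a log2 difference of -0.21 ± 0.41 (SE, adjusted p = 0.983).

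With edgeR's quasi-likelihood test and Benjamini-Hochberg adjustment over all genes, 192 of 16264 genes (1.18%) passed an adjusted p of 0.05. Of these, 78 (0.48% of genes tested) were higher in pBCSP and 114 (0.701%) were lower. The smallest difference that passed was 0.89 log2 among the higher genes and 1.03 log2 in size among the lower ones, while the median over all genes tested was 0.02. In every gene that passed, the 2 groups did not overlap. The gene lists used here held 28 of the higher and 13 of the lower genes. Those include bone matrix and nerve sheath genes among the lower, and genes of connective tissue stroma, tendon, endothelium and leukocytes among the higher. The count depends on which libraries set the spread. It was 110 (31 higher) with the 4 libraries alone and 81 (25 higher, 56 lower) without SSC WT replicate 2. Higher genes numbered 37 without SSC WT replicate 1 and 46 without BCSP WT replicate 2. No gene passed when all 12 RNA libraries, KO included, shared 1 spread (330 at an unadjusted p under 0.05, against 1625 in the WT fit). The WT fit was chosen with that count of 0 known, so its adjusted p do not account for that choice. DESeq2 on the 6 WT libraries called 614, which included the 192. With the replicate number as a block, a number the labels give no meaning, 997 passed, the 192 among them.

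**Figure D1:**
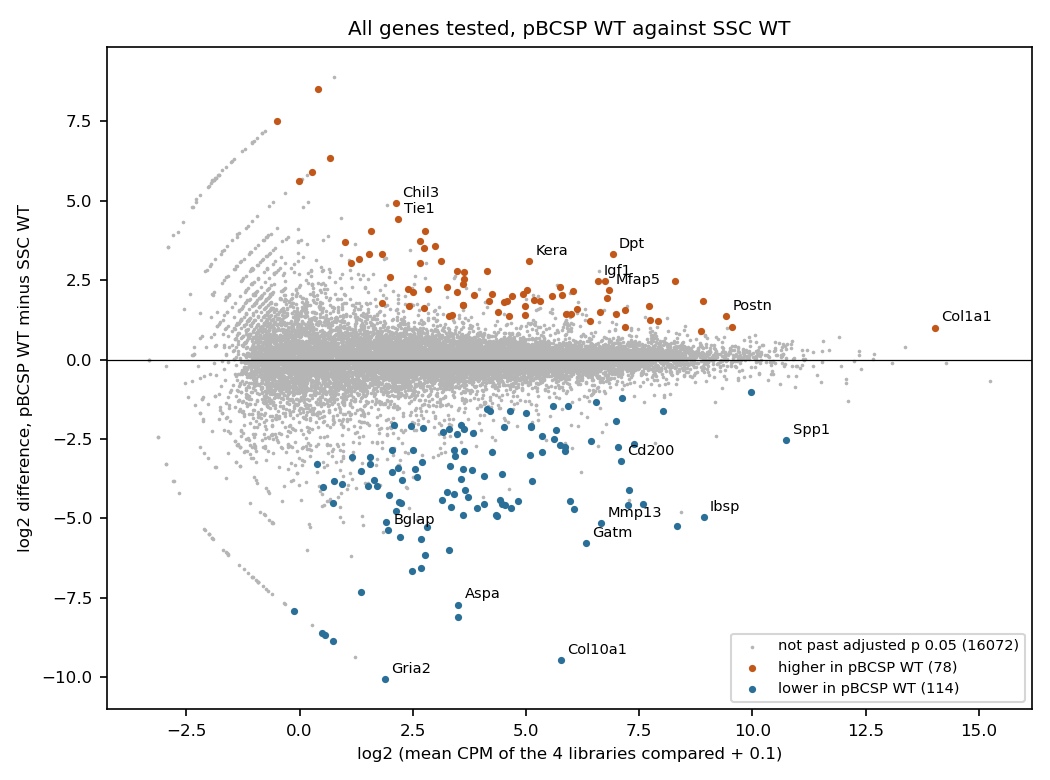
Each point is 1 of 16264 genes: its mean level in the 4 libraries (log2 of CPM + 0.1, horizontal) against its log2 difference, pBCSP WT minus SSC WT (vertical), with the 78 genes that passed as higher in orange, the 114 that passed as lower in blue and the rest in grey. The lower genes reach larger differences than the higher ones, and the grey streaks at the left are genes with few counts.

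The surface genes of the published scheme were read first, since a gene used to sort is no finding. Cd200, which encodes a surface glycoprotein of the immunoglobulin family, was at 293.3 and 200.4 CPM in SSC WT and at 28.08 and 26.08 CPM in pBCSP WT. All pBCSP values lay below all SSC values, with a difference of -3.19 ± 0.32 log2 (adjusted p = 0.00806), the direction the published gates would set. Itgav, the AlphaV integrin gene, was at 60.68 and 65.13 CPM in SSC against 72.66 and 66.13 CPM in pBCSP, and did not pass (adjusted p = 0.949). Eng, the gene of CD105, was at 25.42 to 34.73 CPM in both populations and at 174.3 and 131.4 CPM in BCSP. Ptprc, the gene of the blood cell marker CD45, was between 0 and 0.586 CPM and Thy1 between 0 and 0.2705 CPM in the 4 libraries, too low to be tested. Tek, the gene of the endothelial receptor Tie2, rose from 0.4673 and 0.5448 CPM in SSC to 4.463 and 5.698 CPM in pBCSP (3.31 ± 0.40 log2, adjusted p = 0.0127). Of the 6 surface genes tested, Cd200 and Tek were the 2 that passed, and Tek did not with the 4 libraries alone (adjusted p = 0.0562).

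Several genes of mineralising cells fell in pBCSP. Hypertrophic chondrocytes, the last stage of growth plate cartilage, make collagen X and the protease Mmp13 before bone replaces them, and osteoblasts deposit a matrix of collagen I and acidic proteins. Over all genes tested 0.701% fell and 0.48% rose, and these shares apply to every list count below. The lists were chosen with earlier results of these data known. Of 11 hypertrophic genes tested, 4 fell, 0 rose, and the median was -2.62 log2. Of 18 osteoblast genes tested, 6 fell, 1 rose (Col1a1), and the median was -2.15 log2, also with Mepe, which had no read in pBCSP, set at its bound; Alpl and Spp1 are on both lists.

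Mmp13, which encodes a collagenase (ENSMUSG00000050578, GRCm38 chr9:7272514-7283333), had the smallest p of all genes. It was at 143.4 and 249.5 CPM in SSC, against 5.184 and 5.862 in pBCSP and, in BCSP, 118.8 and 85.36. The difference was -5.15 ± 0.35 log2, or 35.6-fold lower in pBCSP (adjusted p = 0.00459). Both SSC values were far above both pBCSP values.

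Ibsp, the bone sialoprotein gene, was at 1154 and 724.4 CPM in SSC against 47.87 and 12 CPM in pBCSP (-4.97 ± 0.64 log2, adjusted p = 0.0143). Dmp1, which encodes an acidic matrix protein of osteocytes and was named after its values were seen, was at 90.47 and 147.7 CPM against 2.885 and 7.944 CPM (-4.47 ± 0.50 log2, adjusted p = 0.00925). Spp1, the osteopontin gene, was at 3147 and 2726 CPM against 660.8 and 349 CPM (-2.54 ± 0.34 log2, adjusted p = 0.0154). These 3 genes lie in 1 stretch of chromosome 5, between positions 104197575 and 104441053 of GRCm38, and pBCSP was below SSC in every pair of libraries for each. In BCSP, Ibsp was back at 993.3 and 644.2 CPM and Spp1 at 1913 and 1232 CPM.

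Bglap, the gene of osteocalcin, a late product of osteoblasts, was at 7.768 and 6.901 CPM in SSC against 0.2254 and 0.1096 CPM in pBCSP (-5.36 ± 0.57 log2, adjusted p = 0.00806). Its neighbour Bglap2 is a near-identical copy, so reads may have been shared between them and both values are uncertain to that extent; it fell by 5.11 log2 (SE 0.46). Alpl, the phosphatase that makes phosphate available for mineral, was at 479.1 and 105.2 CPM in SSC against 18.53 and 15.23 CPM in pBCSP (-4.11 ± 0.69 log2, adjusted p = 0.0356). Col10a1, the collagen X gene, was at 201.9 and 14.89 CPM in SSC against 0.1803 and 0.1096 CPM in pBCSP (-9.45 ± 1.48 log2, adjusted p = 0.0274). Both SSC libraries were above both pBCSP libraries, but the SSC replicates themselves were far apart. With the 4 libraries alone, neither Alpl (adjusted p = 0.0632) nor Col10a1 (adjusted p = 0.0601) passed. Without pBCSP WT replicate 2, neither Alpl (-3.98 log2, adjusted p = 0.0726) nor Col10a1 (-9.18 log2, adjusted p = 0.0519) passed.

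The transcription factors that lead the osteoblast programme did not pass. Runx2 was at 52.57 and 25.54 CPM in SSC against 26.91 and 14.3 CPM in pBCSP (-0.92 ± 0.44 log2, adjusted p = 0.569). Sp7 was at 66 and 10.9 CPM against 25.42 and 3.506 CPM (-1.40 ± 1.03 log2, adjusted p = 0.816). Ihh, the hedgehog ligand of prehypertrophic cartilage, was at 193.5 and 6.538 CPM against 31.55 and 0.767 CPM (-2.62 ± 1.60 log2, adjusted p = 0.723). For all 3 the groups overlapped. Replicate 1 was above replicate 2 in both populations, and within each replicate number pBCSP was below SSC. With the replicate number as a block all 3 passed (adjusted p = 0.0106 for Runx2), though the labels give that number no meaning. With no filter on low counts Sp7 (adjusted p = 0.000599) and Ihh (adjusted p = 2.4e-17) passed. Yet the replicates of both genes were far apart, and the sign of each turned in 1 of 13 alternatives.

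The start regions of the bone genes that fell are shown because these genes moved together and are textbook targets of Runx2, whose family binds a short core, TGTGGT, read as ACCACA on the other strand. The RefSeq table for GRCm38.p6 held 7 of the 8 bone and hypertrophic genes that fell, all but Bglap2. The core, on either strand in the 250 bases before any listed start, was found in 4 of the 7, against 4303 of 27025 genes with a window (15.9%). A gene with several listed starts has several windows, and 14% of all 32851 windows held the core. Ibsp, Col10a1 and Alpl had it in no window, Dmp1 only at its second listed start and Spp1 only at its first. The letters TATAAA, on either strand, were found in 6 of the 7 and in 14.3% of the 27025 genes with a window. Both background shares include genes that were not tested here. The 4 windows with the core follow, 5′ to 3′ on the gene's strand and ending at the base before the start, with the core in capitals. They are Mmp13 (chr9:7272264-7272513, + strand), Bglap (chr3:88384467-88384716, - strand), Spp1 (chr5:104434861-104435110, + strand) and the second listed start of Dmp1 (chr5:104202367-104202616, + strand).
Mmp13: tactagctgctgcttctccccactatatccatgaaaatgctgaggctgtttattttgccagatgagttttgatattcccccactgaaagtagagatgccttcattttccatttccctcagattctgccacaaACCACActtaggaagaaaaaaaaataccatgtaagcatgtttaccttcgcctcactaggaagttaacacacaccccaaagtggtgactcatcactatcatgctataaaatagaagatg
Bglap: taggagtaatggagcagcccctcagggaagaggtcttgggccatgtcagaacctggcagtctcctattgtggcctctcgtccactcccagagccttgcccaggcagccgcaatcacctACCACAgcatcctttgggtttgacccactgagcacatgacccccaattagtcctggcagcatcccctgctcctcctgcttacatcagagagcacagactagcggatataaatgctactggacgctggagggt
Spp1: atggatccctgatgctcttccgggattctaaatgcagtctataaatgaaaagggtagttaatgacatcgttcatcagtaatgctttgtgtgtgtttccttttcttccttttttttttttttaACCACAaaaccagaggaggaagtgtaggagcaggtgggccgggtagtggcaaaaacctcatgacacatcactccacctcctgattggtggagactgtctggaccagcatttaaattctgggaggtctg
Dmp1: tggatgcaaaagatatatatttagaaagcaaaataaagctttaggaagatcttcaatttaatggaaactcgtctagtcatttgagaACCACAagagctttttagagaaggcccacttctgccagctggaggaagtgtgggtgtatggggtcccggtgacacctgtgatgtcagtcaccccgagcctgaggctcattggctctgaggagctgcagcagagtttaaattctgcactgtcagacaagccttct
In all 4 the core reads ACCACA on the gene's strand, and it begins 118 bases before the start in Mmp13, 132 in Bglap, 128 in Spp1 and 164 in Dmp1. A match of letters is a description and not a shown binding site.

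Cartilage matrix genes were abundant in both populations and mostly at slightly lower values in pBCSP, without passing. Of 19 tested, 0 passed, 18 had a difference below 0, and the median was -0.62 log2. In 12 of the 19 both pBCSP libraries were below both SSC libraries, against 16.4% of all genes tested. Col2a1, the main cartilage collagen gene, was at 58880 and 37000 CPM in SSC against 31100 and 28550 CPM in pBCSP (-0.68 ± 0.25 log2, adjusted p = 0.372, and 0.000109 with no filter on low counts). Acan, the aggrecan gene, was at 580.9 and 440.1 CPM against 521.3 and 408.5 CPM (-0.13 ± 0.22 log2, adjusted p = 0.966). Sox9, the master regulator of cartilage, was at 3828 and 2169 CPM against 4394 and 2931 CPM, and its partner Sox5 at 157.4 and 142.6 CPM against 208.4 and 176.6 CPM, with adjusted p of 0.920 and 0.632. All 4 genes were well above the floor in every library. Of 8 chondrocyte transcription factor genes tested, Sox9 and Sox5 among them, 0 passed, with a median of 0.15 log2.

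Several genes of connective tissue stroma rose in pBCSP. Of 22 stromal progenitor genes tested, 7 rose and 0 fell, against 0.48% and 0.701% of all genes tested. Their median was 0.93 log2, with 19 differences above 0. Dpt, which encodes the matrix protein dermatopontin that marks fibroblasts of many tissues (ENSMUSG00000026574, GRCm38 chr1:164796663-164824274), was at 26.4 and 17.86 CPM in SSC, against 194 and 244.9 in pBCSP and, in BCSP, 595.5 and 676.2. The difference between pBCSP and SSC was 3.31 ± 0.25 log2, or 9.91-fold (adjusted p = 0.00459). Clec3b, which encodes tetranectin, a plasminogen-binding protein, was at 2.336 and 1.211 CPM in SSC against 13.43 and 17.26 CPM in pBCSP (3.10 ± 0.37 log2, adjusted p = 0.0113). Dpp4, a surface peptidase of fibroblast progenitors, was at 0.5257 and 0.3632 CPM against 3.967 and 3.506 CPM (3.05 ± 0.39 log2, adjusted p = 0.0134). For each of these genes both pBCSP libraries were above both SSC libraries, and BCSP stood higher still.

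The 4 other members that were named after their values were seen. Ly6a, the gene of the progenitor surface protein Sca-1, was at 5.023 and 3.874 CPM in SSC against 24.79 and 36.6 CPM in pBCSP (2.78 ± 0.30 log2, adjusted p = 0.00806). Pi16 rose by 2.39 ± 0.39 log2 (adjusted p = 0.0328), the limb transcription factor Osr1 by 2.02 ± 0.29 (adjusted p = 0.0216) and the surface sialomucin Cd34 by 1.49 ± 0.21 (adjusted p = 0.0201). The broad mesenchymal genes Pdgfra and Prrx1 did not pass, at 1.07 ± 0.29 and 0.87 ± 0.24 log2 (adjusted p = 0.179 and 0.173), though their groups did not overlap and both passed in DESeq2 (adjusted p = 0.0396 and 0.0414). Dpp4 did not pass without SSC WT replicate 2 (2.82 log2, adjusted p = 0.0565), nor Pi16 without 1 of 4 libraries (either SSC WT library, or replicate 2 of pBCSP WT or of BCSP WT; 1.82 to 2.38 log2, adjusted p = 0.0516 to 0.122). Cd34 did not pass without SSC WT replicate 1 (adjusted p = 0.0732), and Osr1 without it (adjusted p = 0.0613) or BCSP WT replicate 2 (adjusted p = 0.0504).

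Of 18 fibrous matrix genes tested, 3 rose (0.48% of all genes tested), 0 fell and 17 were above 0, with a median of 0.55 log2. Mfap5, which encodes a glycoprotein of elastic microfibrils, was at 38.37 and 44.25 CPM in SSC, against 180.3 and 192.4 in pBCSP and, in BCSP, 881.1 and 1025 (2.17 ± 0.18 log2, pBCSP minus SSC, adjusted p = 0.00459). Col14a1, a collagen on the surface of fibrils, was at 33.58 and 35.59 CPM against 91.91 and 117.7 CPM (1.60 ± 0.22 log2, adjusted p = 0.0177). Postn, the periostin gene, was at 376.3 and 390 CPM against 934.7 and 1038 CPM (1.36 ± 0.17 log2, adjusted p = 0.0134). Col1a1, the main bone and skin collagen gene and the member of the osteoblast list that rose, also named after its values were seen, was at 11080 and 11320 CPM against 22730 and 22280 CPM (1.01 ± 0.15 log2, adjusted p = 0.0223). Its 2.01-fold difference stood against lower values of the other osteoblast products above. Col3a1 (0.48 ± 0.28 log2, adjusted p = 0.694) and Col5a1 (0.95 ± 0.21 log2, adjusted p = 0.0925) did not pass, though Col5a1 did in DESeq2 (adjusted p = 0.00728).

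Outside the lists and chosen after their values were seen, the small proteoglycan gene Aspn was at 195 and 221.6 CPM in SSC against 734.3 and 772.6 CPM in pBCSP (1.85 ± 0.19 log2, adjusted p = 0.00806). Ecm1, a secreted matrix glycoprotein, was at 84.46 and 108.2 CPM against 471.1 and 597.8 CPM (2.47 ± 0.27 log2, adjusted p = 0.00806). The large proteoglycan gene Vcan rose by 2.16 ± 0.30 log2 (adjusted p = 0.0185, and 0.0574 with the 4 libraries alone). Col6a6, a collagen VI chain that the naming rule picked, was at 1.46 and 0.6659 CPM against 6.626 and 17.81 CPM (3.51 ± 0.56 log2, adjusted p = 0.03). Without SSC WT replicate 2, Postn (1.39 log2, adjusted p = 0.0531), Col14a1 (1.64, adjusted p = 0.0618), Col1a1 (1.02, adjusted p = 0.0571) and Col6a6 (3.06, adjusted p = 0.117) did not pass. Col14a1 and Col1a1 were also lost without SSC WT replicate 1 (adjusted p = 0.0645 and 0.0665), Col1a1 without pBCSP WT replicate 1 or 2 (adjusted p = 0.0561 and 0.0537) and Col6a6 without BCSP WT replicate 2 (adjusted p = 0.0627).

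Tendon genes gave 4 rises and 0 falls among 8 tested, against 0.48% and 0.701% of all genes tested, with a median of 0.85 log2. Kera, which encodes the proteoglycan keratocan, was at 9.053 and 5.024 CPM in SSC against 40.7 and 79.66 CPM in pBCSP (3.09 ± 0.44 log2, adjusted p = 0.0216). Thbs4, a thrombospondin of tendon matrix, was at 39.95 and 51.69 CPM against 149.2 and 201.1 CPM (1.93 ± 0.22 log2, adjusted p = 0.0107). Tnmd, the tenomodulin gene of mature tendon cells, was at 83.58 and 62.41 CPM against 239.6 and 192.5 CPM (1.57 ± 0.24 log2, adjusted p = 0.024), and Thbs2 rose by 1.03 ± 0.18 (adjusted p = 0.0376). Scx, the transcription factor that marks tendon progenitors, was at 8.411 and 6.659 CPM against 7.573 and 7.944 CPM (0.04 ± 0.33 log2, adjusted p = 0.996), and its groups overlapped. Without SSC WT replicate 2, Kera (adjusted p = 0.0726), Tnmd (adjusted p = 0.093) and Thbs2 (adjusted p = 0.12) did not pass. Tnmd was also lost without pBCSP WT replicate 1 (adjusted p = 0.0501), and Thbs2 without 4 others (SSC WT replicate 1, either pBCSP WT library, or replicate 2 of BCSP WT; adjusted p = 0.0518 to 0.16).

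**Figure D2:**
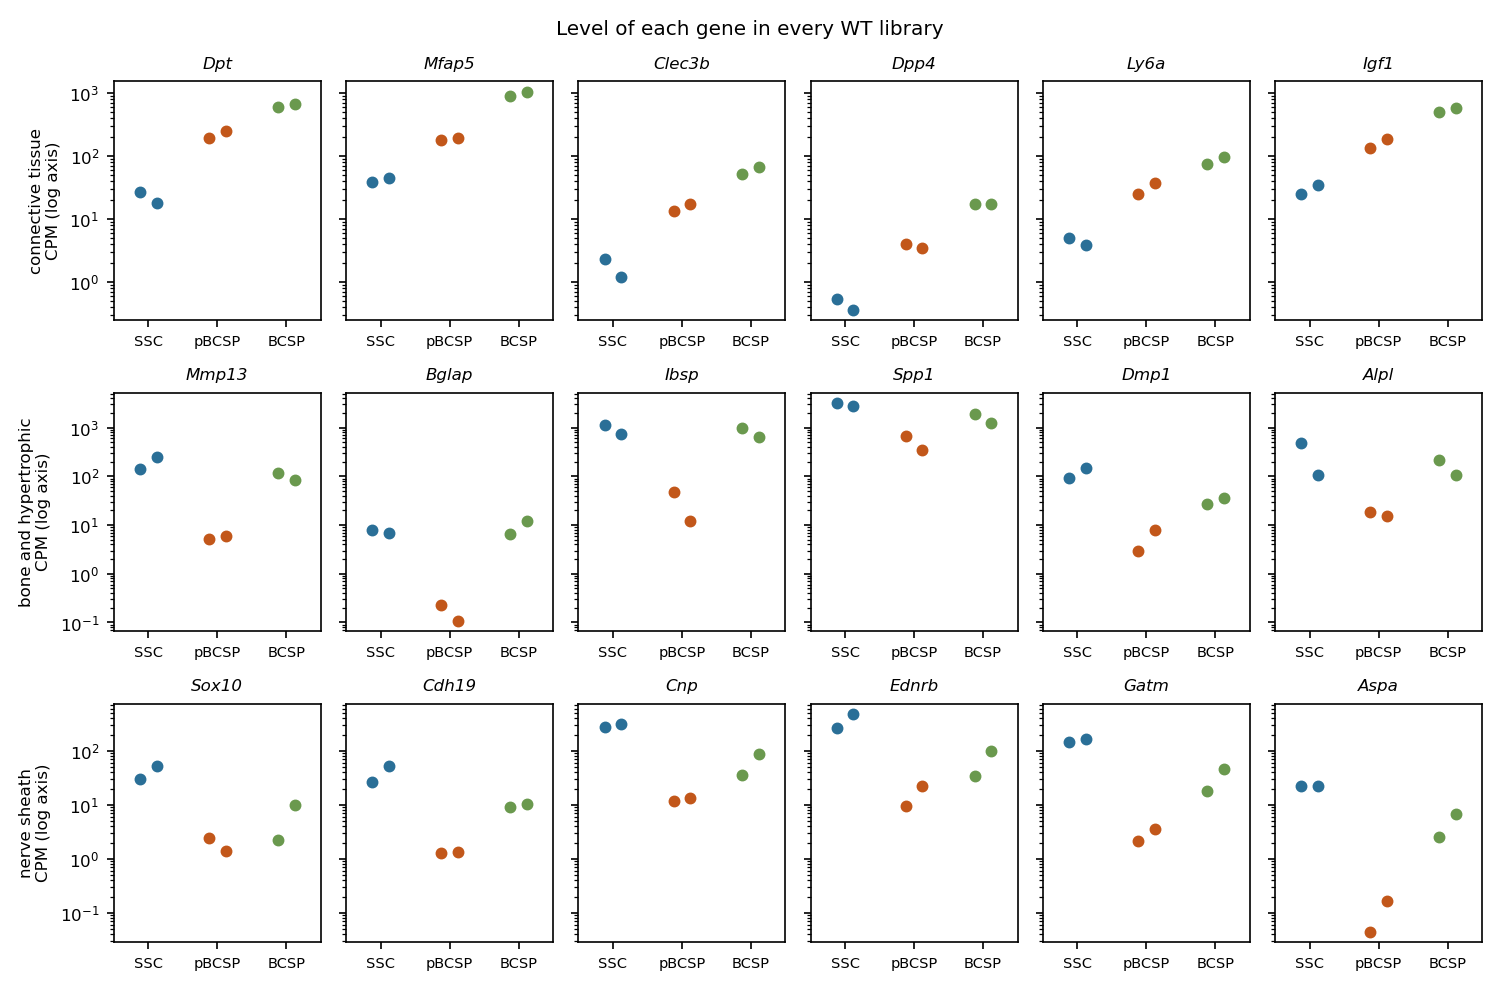
CPM (vertical, log axis) of 18 genes in the 6 WT libraries, 2 points each for SSC (blue), pBCSP (orange) and BCSP (green); rows hold genes of connective tissue, of bone and hypertrophic cartilage, and of nerve sheath. The connective tissue genes climb from SSC through pBCSP to BCSP, whereas in the other 2 rows pBCSP is the lowest or shares the lowest place.

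Joint and superficial cartilage genes gave 1 rise among 13. Dkk3, a secreted member of the Dickkopf family that is also on the Wnt list, was at 77.33 and 122.3 CPM in SSC against 281.6 and 356.4 CPM in pBCSP (1.68 ± 0.28 log2, adjusted p = 0.0335). Gdf5, a BMP family ligand of forming joints, was at 31.77 and 35.71 CPM against 55.53 and 46.4 CPM, and Prg4, the lubricin gene, at 1469 and 1760 CPM against 1965 and 2224 CPM. Neither passed (adjusted p = 0.38 and 0.632), though in both genes the groups did not overlap. Dkk3 was lost without SSC WT replicate 1 (adjusted p = 0.103), or without replicate 2 of pBCSP WT (0.0728) or BCSP WT (0.0562).

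Among signalling pathways, 3 insulin-like growth factor (IGF) genes rose in pBCSP. IGF ligands act through a tyrosine kinase receptor to drive growth of bone and cartilage, and IGF binding proteins hold them in the tissue. Of 11 genes tested 3 rose and 0 fell, against 0.48% and 0.701% of all genes tested, with a median of 1.00 log2. Igf1, the main ligand after birth, was at 24.94 and 34.26 CPM in SSC, against 135.5 and 189.5 in pBCSP and, in BCSP, 496.1 and 580 (2.46 ± 0.25 log2, pBCSP minus SSC, 5.49-fold, adjusted p = 0.00806). Both pBCSP libraries were well above both SSC libraries. The other ligand gene, Igf2, lay in the opposite direction at 205.5 and 114.6 CPM against 108.9 and 79.28 CPM and did not pass (-0.77 ± 0.37 log2, adjusted p = 0.572, and 0.0449 with no filter on low counts). The binding protein genes Igfbp2 and Igfbp6 rose by 2.05 ± 0.33 and 1.43 ± 0.19 log2 (adjusted p = 0.0315 and 0.0176). Both binding protein calls were lost without either SSC WT library (replicate 1, adjusted p = 0.112 and 0.0519; replicate 2, 0.103 and 0.0709) and without replicate 2 of pBCSP WT (0.0562 and 0.0519).

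In the Wnt list, 2 of 25 genes rose and 0 fell, with a median of -0.47 log2. The 2 were the secreted proteins Dkk3, above, and Rspo2, an R-spondin that amplifies Wnt signals, at 1.402 and 0.7869 CPM in SSC against 5.95 and 7.451 CPM in pBCSP (2.60 ± 0.44 log2, adjusted p = 0.0363). The feedback target Axin2 (-0.23 ± 0.48 log2, adjusted p = 0.986) and the pathway's transcription factor gene Lef1 (0.07 ± 0.26 log2, adjusted p = 0.992) did not pass. Rspo2 was lost without any 1 of 5 libraries, all but pBCSP WT replicate 1 (2.25 to 3.03 log2, adjusted p = 0.0519 to 0.128).

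In the Notch list, 1 of 13 genes fell and 0 rose, against 0.701% and 0.48% of all genes tested. The gene was Nrarp, a feedback inhibitor of Notch, at 2.161 and 3.814 CPM in SSC against 0.09015 and 0.1644 CPM in pBCSP (-4.51 ± 0.80 log2, adjusted p = 0.0465). This call was lost without any 1 of the 6 WT libraries (-4.95 to -4.04 log2, adjusted p = 0.0572 to 0.182). The Notch targets Hes1 (0.17 ± 0.21 log2, adjusted p = 0.938) and Hey1 (-0.39 ± 0.48 log2, adjusted p = 0.94) did not pass. No gene passed among 28 of the BMP and TGF-beta list, 15 of the hedgehog list or 15 of the FGF list. In those lists Id1 was at -0.32, Smad6 at 0.24, Gli1 at 0.41, Ptch1 at -0.17, Fgfr1 at -0.27 and Fgfr3 at -0.72 log2, with adjusted p from 0.53 to 0.983.

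Limb patterning genes tended to higher values in pBCSP. The list of Hox and other limb identity genes had 14 of 15 differences above 0 and a median of 0.75 log2, and in 9 of them both pBCSP libraries were above both SSC libraries, against 19.2% of all genes tested. Only Shox2, a homeobox gene of the proximal limb, passed, at 14.13 and 16.89 CPM in SSC against 55.94 and 57.42 CPM in pBCSP (1.87 ± 0.28 log2, adjusted p = 0.0228). Hoxa9 (0.65 ± 0.47 log2, adjusted p = 0.809) and Hoxa10 (0.75 ± 0.42 log2, adjusted p = 0.664) did not. The Shox2 call was lost without SSC WT replicate 1 (adjusted p = 0.0919) or 2 (adjusted p = 0.0675).

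No gene passed in the lists for glycolysis (18 tested), DNA replication and S phase (18), G2 and M phase (21), CDK inhibitors (6), immediate early genes (18), heat shock (9), the PTIP and MLL3/4 complex (9) and mitochondrially encoded transcripts (12). Their medians ran from -0.20 to 0.13 log2. Pgk1 and Ldha of glycolysis were at 0.18 and 0.04 log2, Mcm2 and Pcna of S phase at 0.18 and 0.00, Mki67 and Cdk1 of mitosis at -0.20 and 0.19, the CDK inhibitors Cdkn1a and Cdkn1c at -0.00 and -0.53, and the dissociation-sensitive Fos and Jun at -0.19 and -0.21. Hspa1a and Hspa1b of the heat shock list were at 0.08 and 0.56, and mt-Nd1 and mt-Cytb at 0.04 and 0.28. None of these had an adjusted p under 0.714, which does not show that the levels are equal.

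**Figure D3:**
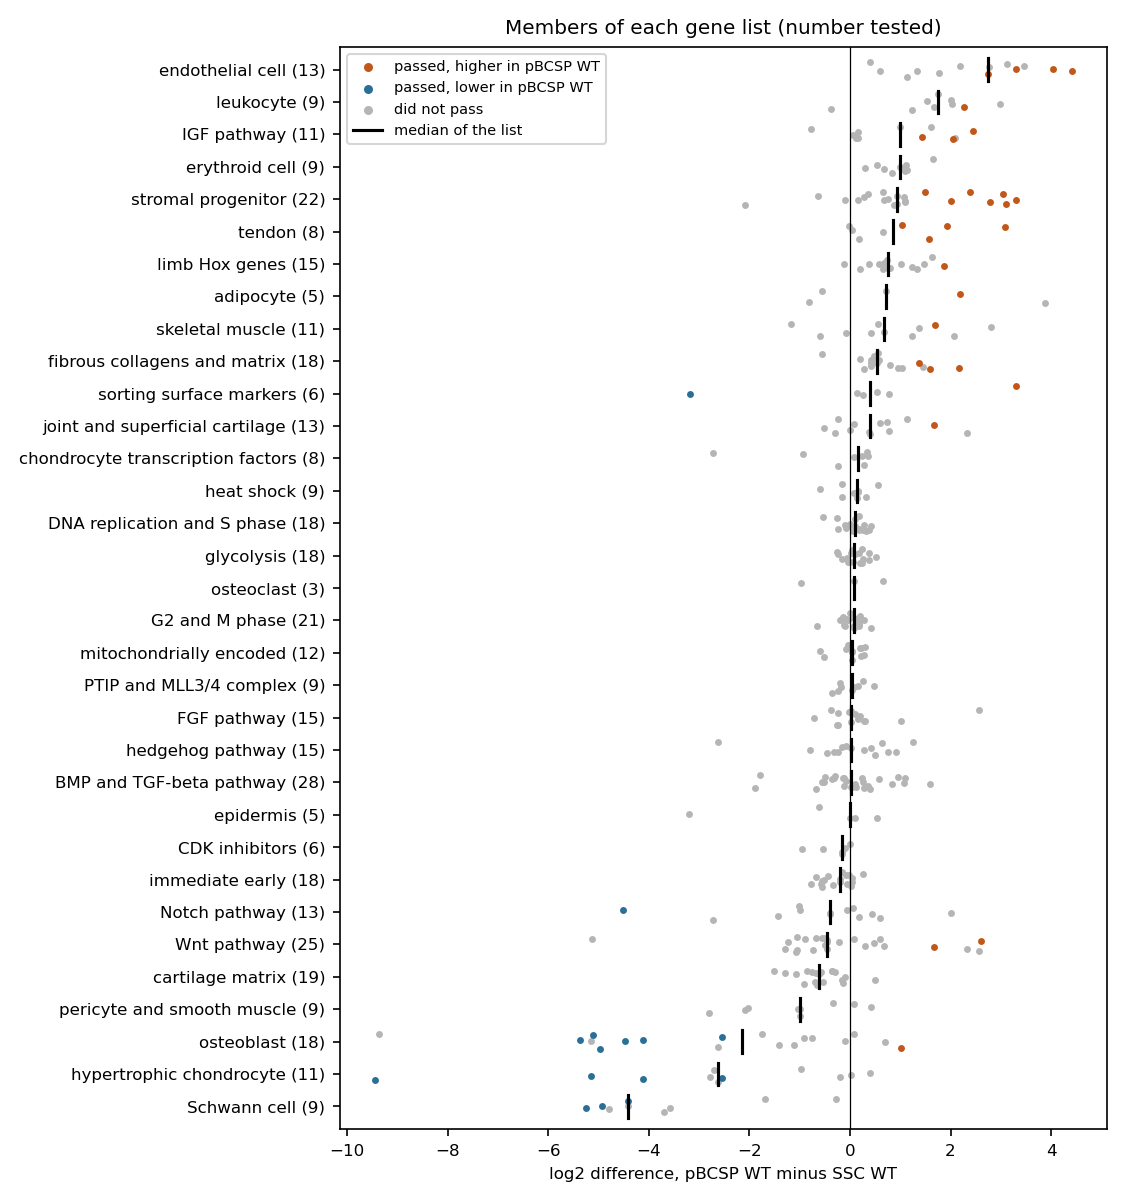
Each row is a gene list with the number of members tested; points are members placed by log2 difference, pBCSP WT minus SSC WT, orange where higher and blue where lower past an adjusted p of 0.05, grey otherwise, and black bars are list medians. Schwann cell, hypertrophic and osteoblast lists lie to the left, and endothelial, leukocyte, IGF, stromal and tendon lists to the right.

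Some genes of Schwann cells, which wrap peripheral nerves, fell in pBCSP. In bulk libraries fewer cells of a type and less RNA per cell cannot be told apart. Of 9 Schwann cell markers tested 3 fell (0.701% of all genes tested) and 0 rose, all 9 were below 0, and the median was -4.41 log2. Their summed level was 1532 and 2185 CPM in SSC, against 123.6 and 163.9 in pBCSP and, in BCSP, 341.4 and 918. None of the markers was at 0 in either population. Sox10, the master regulator of the lineage, was at 29.67 and 52.12 CPM in SSC against 2.389 and 1.424 CPM in pBCSP (-4.41 ± 0.71 log2, adjusted p = 0.03). Cdh19, a cadherin of Schwann cell precursors, was at 26.93 and 51.88 CPM against 1.262 and 1.315 CPM (-4.93 ± 0.41 log2, adjusted p = 0.00459). The SSC library higher in both genes is replicate 2, and without it Sox10 (-3.95 log2, adjusted p = 0.0709) did not pass; Sox10 was also lost without pBCSP WT replicate 2 (adjusted p = 0.0639).

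Other genes known from myelinating or nerve-associated cells passed as well and were named after their values were seen. Cnp, an enzyme of myelin, was at 280.6 and 308.2 CPM in SSC against 11.58 and 13.26 CPM in pBCSP (-4.57 ± 0.42 log2, adjusted p = 0.00459). Ednrb, the endothelin receptor of neural crest cells, was at 264.5 and 474.2 CPM against 9.646 and 22.08 CPM (-4.54 ± 0.62 log2, adjusted p = 0.0185). Dhh, the hedgehog ligand made by Schwann cells, was at 37.09 and 27.3 CPM against 0.586 and 2.191 CPM (-4.56 ± 0.65 log2, adjusted p = 0.0215). The myelin gene Mal, the promyelinating factor gene Pou3f1 and the gap junction gene Gjc3 fell by 4.72, 4.50 and 2.90 log2 (adjusted p = 0.0285, 0.0216 and 0.0228). Without SSC WT replicate 2 these 3 gave adjusted p of 0.0624, 0.0531 and 0.0627.

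The 12 genes that the naming rule picked for their large falls included Col10a1 and Bglap, given above, and 10 others. Gatm, the first enzyme of creatine synthesis, was at 144 and 168.5 CPM in SSC against 2.119 and 3.561 CPM in pBCSP (-5.79 ± 0.53 log2, adjusted p = 0.00459). Aspa, which splits N-acetylaspartate, was at 22.43 and 22.28 CPM against 0.04508 and 0.1644 CPM (-7.71 ± 0.71 log2, adjusted p = 0.00465). Gria2, a subunit of AMPA glutamate receptors, was at 3.388 and 11.02 CPM in SSC and had no read in either pBCSP library. Taking 3 counts over the group as the floor, it was at least 97.1-fold lower in pBCSP. Ugt8a, which makes the galactolipids of myelin, was at 11.45 and 15.07 CPM against 0 and 0.3835 CPM. Of the others, Tmprss5 and Col20a1 fell by 6.66 and 5.99 log2, Prkcq by 5.65, and the neurotrophic factor receptor gene Gfra3 by 5.27. Sorcs1 was at 11.1 and 13.92 CPM in SSC against 0 and 0.2739 CPM in pBCSP. Rasgef1c was at 13.26 and 31.66 CPM against 0.04508 and 0.1096 CPM. Adjusted p for these 10 ran from 0.00459 to 0.0328, and without SSC WT replicate 2 Gria2, Sorcs1 and Ugt8a did not pass (adjusted p = 0.0565, 0.0689 and 0.0709). Like the summed Schwann cell markers they were high in SSC and low in pBCSP, but they were picked for that fall. In BCSP they lay between, as did 107 of all 114 lower genes. The part of Schwann cells in the result was not tested.

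Some endothelial genes rose in pBCSP. Of 13 tested 4 rose (0.48% of all genes tested) and 0 fell, all 13 were above 0, and the median was 2.75 log2. Their summed level was 37.61 and 67.68 CPM in SSC, against 123.3 and 140.5 in pBCSP and, in BCSP, 69.8 and 81.52. Tie1, an endothelial receptor, was at 0.5257 and 0.2421 CPM in SSC against 8.655 and 8.108 CPM in pBCSP (4.42 ± 0.59 log2, adjusted p = 0.0154). Cldn5, a tight junction protein of vessels, was at 1.168 and 0.3632 CPM against 11.09 and 14.41 CPM (4.04 ± 0.60 log2, adjusted p = 0.0228). Pecam1, the CD31 gene, was at 3.271 and 3.027 CPM against 16.95 and 25.58 CPM (2.75 ± 0.35 log2, adjusted p = 0.0134). Tek, given above, is the fourth, and Cdh5, the vascular cadherin gene, was at 0.292 and 0.1816 CPM against 1.127 and 1.096 CPM and did not pass (adjusted p = 0.311). Adgrl4, an adhesion receptor of vessels, and Ly6c1, a surface protein of endothelium and monocytes, were picked by the naming rule for their large rises, at 4.03 ± 0.64 and 3.57 ± 0.52 log2 (adjusted p = 0.0285 and 0.0223). Ly6c1 did not pass with the 4 libraries alone (adjusted p = 0.0702). In BCSP, Tek (10.99 and 10.4 CPM) and Ly6c1 (25.88 and 31.09 CPM) stood above both pBCSP libraries, unlike the summed level. Tie1 (4.602 and 2.208 CPM), Cldn5 (4.909 and 2.499 CPM) and Adgrl4 (2.659 and 1.162 CPM) stood below both pBCSP libraries there. Without SSC WT replicate 2, Tie1, Cldn5, Pecam1 and Adgrl4 gave adjusted p of 0.0581, 0.06, 0.0558 and 0.103. Adgrl4 was also lost without replicate 1 of SSC WT (adjusted p = 0.103) or of pBCSP WT (0.0593).

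Among leukocyte genes, 1 of the 9 tested rose and 0 fell, against 0.48% and 0.701% of all genes tested, with a median of 1.75 log2. Their summed level was 12.67 and 8.475 CPM in SSC, against 44.81 and 37.25 in pBCSP and, in BCSP, 14.88 and 18.54. S100a8, a calcium-binding protein of neutrophils, was at 4.088 and 2.421 CPM against 16.23 and 15.34 CPM (2.27 ± 0.36 log2, adjusted p = 0.029). The naming rule added Chil3, a chitinase-like protein of macrophages and neutrophils, at 0.292 and 0.2421 CPM in SSC, against 6.446 and 10.14 in pBCSP and, in BCSP, 0.2046 and 0.05811 (4.92 ± 0.61 log2, adjusted p = 0.0131). It also added Ngp, a granule protein of neutrophil precursors, at 0.7593 and 0.9685 CPM against 12.13 and 10.9 CPM (3.73 ± 0.68 log2, adjusted p = 0.0485), and Il1rl1, the interleukin 33 receptor gene, which rose by 3.32 ± 0.60 log2 (adjusted p = 0.0484). In BCSP, Ngp was at 0.3068 and 1.685 CPM. Il1rl1 differed from Chil3 and Ngp there, at 16.82 and 42.36 CPM, above both pBCSP libraries (5.094 and 7.451 CPM). Without SSC WT replicate 2, S100a8, Chil3, Ngp and Il1rl1 gave adjusted p of 0.0991, 0.0554, 0.143 and 0.171. Other single libraries also ended the calls of S100a8 (any but SSC WT replicate 1, adjusted p = 0.0533 to 0.0659), of Ngp (SSC WT replicate 1, pBCSP WT replicate 1 or 2, adjusted p = 0.0546 to 0.163) and of Il1rl1 (SSC WT replicate 1 or pBCSP WT replicate 2, adjusted p = 0.0728 and 0.067).

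Adipocyte genes gave 1 rise among 5: Lpl, the lipase that frees fatty acids from lipoproteins, was at 11.27 and 12.17 CPM in SSC, against 54.68 and 52.32 in pBCSP and, in BCSP, 269.2 and 235.6 (2.19 ± 0.20 log2, pBCSP minus SSC, adjusted p = 0.00459). Adipoq, the hormone gene of mature fat cells, was at 0.3504 and 0 CPM against 3.065 and 2.356 CPM and did not pass (adjusted p = 0.136), though it did in DESeq2 (adjusted p = 0.00352). Skeletal muscle genes gave 1 rise among 11: Acta1, the muscle actin gene, was at 15.01 and 14.71 CPM against 44.36 and 51.39 CPM (1.69 ± 0.24 log2, adjusted p = 0.0219; without SSC WT replicate 1 or 2, adjusted p = 0.0708 and 0.0822). Myod1 and Pax7, the defining muscle factors, were too low to be tested.

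No gene passed among 9 erythroid, 3 osteoclast, 9 pericyte and smooth muscle, and 5 epidermis genes. Hba-a1 and Hbb-bs, globin genes with near-identical copies and so uncertain, were at 1.10 and 0.84 log2 and their groups overlapped. The pericyte list had 7 of 9 differences below 0, with Rgs5 at -0.34 ± 0.58 and Acta2 at -2.02 ± 0.57 log2 (adjusted p = 0.192, and 0.00517 in DESeq2). Ctsk and Acp5 of the osteoclast list were at 0.66 and 0.08 log2. The part of endothelial, blood, fat or muscle cells in the genes higher in pBCSP was not tested.

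**Figure D4:**
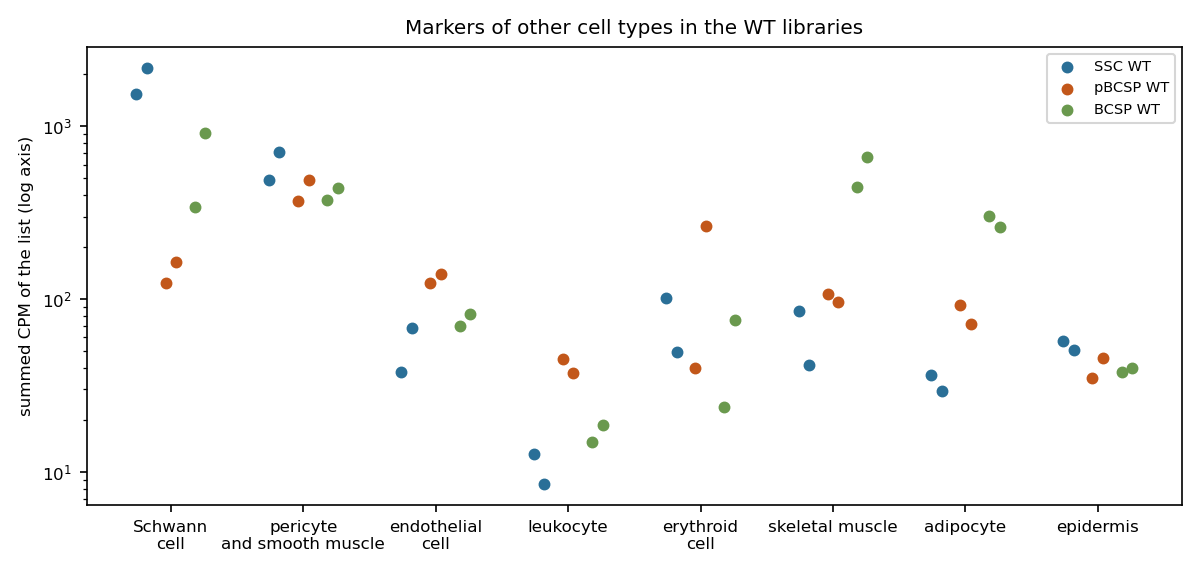
Summed CPM (vertical, log axis) of each list of markers of other cell types in the 6 WT libraries, 2 points per population: SSC blue, pBCSP orange, BCSP green. Schwann cell sums are highest in SSC, at 1532 and 2185 CPM against 123.6 and 163.9 CPM in pBCSP, while endothelial and leukocyte sums are highest in pBCSP.

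Histone marks were set beside the RNA differences from the deposited peak lists of the same 2 WT populations. H3K4me3 marks active gene starts, H3K4me1 enhancers and the flanks of starts, and H3K27ac active starts and enhancers. Each list is 1 library, so the following are values with no test, and fold enrichments are the authors'. A gene was given a peak when one lay in its RefSeq span or within 1 kb of it, a definition chosen after seeing that only 69.2% of the higher and 71.1% of the lower genes had an entry for their start. Spans were found for all 78 higher genes, 112 of the 114 lower genes and 14997 of 16264 genes tested.

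H3K4me3 peaks at most genes that passed were in both lists. Of the 78 higher genes, 57 had a peak in both lists, 6 (7.69%) only in the pBCSP list and 1 (1.28%) only in the SSC list, against 0.293% and 0.947% of all genes. The 6 were Dpt, Mfap5, Ecm1, Kera, Tnmd and the muscle gene Myot, and the 1 was Il1rl1. Of 112 lower genes, 90 had a peak in both lists, 5 (4.46%) only in the SSC list and 2 (1.79%) only in the pBCSP list. The 5 included Dmp1, Gjc3, Gria2 and the collagen gene Col28a1, and the 2 were Gstm7 and I730030J21Rik. Myot, Col28a1, Gstm7 and I730030J21Rik were named for these peaks, after their values were seen. Some of the peaks were not at a start: those of Col28a1, Il1rl1 and I730030J21Rik lay 154153, 25876 and 2984 bases from the nearest listed start. Within 1 kb of listed starts only, 3 of 81 lower genes (3.7%, against 0.865% of all genes) had a peak only in the SSC list. There 6 of 54 higher genes (11.1%, against 0.221%) had one only in the pBCSP list. Restricted to peaks with a -log10 q of at least 5, 7 higher genes (8.97%, against 1.11% of all genes) had a peak only in the pBCSP list and 2 lower genes (1.79%, against 0.367%) only in the SSC list. Of the genes above with a peak in only 1 list, Dpt alone had a peak that reached this q. The other genes counted here are thus different ones, with a weaker peak in the other list. At that q the lower genes divided evenly, with 2 (1.79%) only in the pBCSP list and 82 with a peak in the SSC list as in the pBCSP list.

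The strongest of these was at Dpt, where the pBCSP list holds a peak at chr1:164796417-164798469 that spans the gene's start, with a fold enrichment of 5.30 and a -log10 q of 6.16. The 250 bases before the Dpt start (chr1:164796413-164796662, + strand, GRCm38.p6, from RefSeq) are shown because all but the first 4 of them lie within that peak, with the same ACCACA core in capitals.
Dpt: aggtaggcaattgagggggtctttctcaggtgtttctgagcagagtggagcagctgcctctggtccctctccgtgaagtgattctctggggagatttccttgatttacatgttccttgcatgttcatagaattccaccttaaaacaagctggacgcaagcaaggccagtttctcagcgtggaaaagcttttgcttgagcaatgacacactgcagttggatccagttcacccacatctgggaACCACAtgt
Here the core begins 9 bases before the start, in a gene that rose, so it is not limited to the genes that fell. The Dmp1 peak of the SSC list, at chr5:104201781-104202150, had a fold enrichment of 3.68 and lay 467 bases from the second listed start. Peaks at Kera, Tnmd and Gjc3 had fold enrichments of 3.32 to 4.03 and -log10 q of 1.99 to 3.42.

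Other genes with large RNA differences had a peak in both lists or in neither. Mmp13 and Bglap had no H3K4me3 peak in either list, and Cd200 had one in both with a fold enrichment of 17.32 in each. Spp1 was at 5.03 in the SSC list and 4.59 in the pBCSP list, Alpl at 4.72 and 4.99, and Sox10 at 3.89 and 3.41. Among the higher genes Igf1 was at 7.97 and 12.25, Postn at 6.89 and 11.39 and Lpl at 12.03 and 13.22. The read depth of the lists is unknown, and the SSC list held 33510 H3K4me3 peaks with a median fold enrichment of 5.83, against 28612 with a median of 8.31 in the pBCSP list, so fold enrichments are not compared between lists.

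H3K27ac lists were short in SSC, with 1828 and 137 peaks against 6879 and 3811 in pBCSP, so a peak absent in SSC says little. In the first pBCSP list 14 of 78 higher genes (17.9%) and 3 of 112 lower genes (2.68%) had a peak, against 30% of all genes. In the second, 8 higher genes (10.3%) and 7 lower genes (6.25%) had one, against 14.9%. With all peaks counted, both shares of the genes that passed were thus below the background in each list. With a -log10 q of at least 5, the second list had a peak at 6 higher genes (7.69%) and 2 lower genes (1.79%), against 4.53% of all genes. In both pBCSP lists a peak was found at Col1a1 (fold enrichments of 4.22 and 4.59), Nfib and Akap13, which rose, and at Frmd8 and Plekha4, which fell; all but Col1a1 were named for these peaks after their values were seen.

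The same comparison was read in the KO libraries, which the WT fit did not use. Paxip1, the targeted gene, was at 0.347 and 0 CPM in SSC KO and at 0.568 and 0.0904 CPM in pBCSP KO. No gene of 17494 passed for pBCSP KO against SSC KO in edgeR (0%, 893 at an unadjusted p under 0.05), and 0 passed the test of the difference between genotypes (0%, 379 at an unadjusted p under 0.05), which does not show that the contrasts are equal. KO replicates were further apart, at 1.30 log2 in SSC KO and 0.67 in pBCSP KO by the median difference, and the second SSC KO library read only 13987 genes. Of the 78 genes higher in pBCSP WT, 67 were also above 0 in KO, against 56.6% of all genes, and of the 114 lower genes 103 were also below 0, against 42.9%. Both KO replicates of pBCSP were above both of SSC for 27 of the 78 (16.1% of all genes) and below for 33 of the 114 (8.27% of all genes).

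Single KO libraries set these values. Without SSC KO replicate 1, which leaves replicate 2 alone, 67 of 78 and 36 of 114 genes kept their sign, and 4482 genes passed, 2962 in the test of the difference between genotypes, with the lone library assumed to vary like the other groups. Without pBCSP KO replicate 1, 40 of 78 and 103 of 114 kept it, and 0 genes passed (1241 at an unadjusted p under 0.05).

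Mmp13 was lower in pBCSP KO in each replicate. It was at 34.79 and 591.6 CPM in SSC KO and at 1.956 and 0.3617 CPM in pBCSP KO (-8.11 log2), and Col10a1 fitted at -7.08 log2. Cd200 was at -3.90 log2 in KO. Sox10 was at 8.872 CPM in SSC KO replicate 1 and at 0 in replicate 2, and Cdh19 at 12.13 and 10.59 CPM. Dpt was at 19.13 and 0.05544 CPM in SSC KO and at 115.7 and 12.21 CPM in pBCSP KO, so its groups overlapped. Ngp and S100a8 had the opposite sign in KO, at -4.31 and -3.06 log2. None of these KO values passed.

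**Figure D5:**
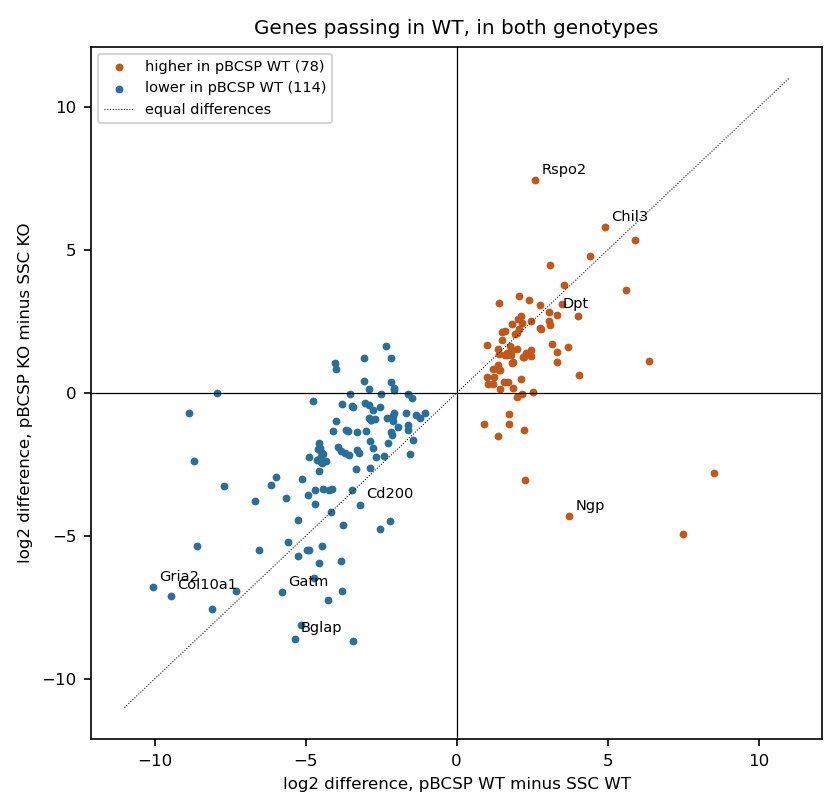
The 192 genes that passed in WT, placed by their log2 difference in WT (horizontal) and in KO (vertical), pBCSP minus SSC in both, with orange for the 78 higher and blue for the 114 lower genes and a dotted line of equal differences. Most points lie in the lower left and upper right, 103 and 67 genes; the KO values rest on 2 libraries per group that differ widely.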

How the data were processed

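RNA was measured in sorted limb cells: per the labels' protocols, RNA was extracted with Trizol, enriched on oligo dT beads, made into random-primed cDNA and amplified by 15 PCR cycles. The authors deposited 1 table of raw read counts per gene for the 12 RNA libraries, and whether reads were counted by strand is not stated there. Per the submitters' processing notes, which give no roles, the tools include the peak caller MACS2 2.2.6, the counter featureCounts 2.0.1, the aligner Bowtie2 2.3.5.1 and the trimmer Trim Galore 0.6.6, with the build GRCm38. Overlapping and antisense genes may therefore share reads. The authors' deposited peak lists give, per peak, a score, a fold enrichment and −log10 p and q values, 1 list per library.

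From the counts, genes were filtered with filterByExpr and fitted in edgeR 4.0.16 (R 4.3.3, limma 3.58.1) with TMM library sizes and the quasi-likelihood test over the 6 WT libraries in 3 groups. KO libraries were left out of that fit because their replicates are further apart, a choice made with the earlier result known that no gene passes with all 12 libraries. P-values were adjusted by Benjamini-Hochberg over all genes tested, with a threshold of 0.05; values after ± are SE. KO CPM and KO contrasts come from a fit of all 12 RNA libraries. Motifs and gene positions come from RefSeq tables for GRCm38.p6.

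Genes named are the first 2 of each list, up to 3 further members of each list that passed, and up to 12 in each direction with the largest difference, non-overlapping groups and at least 5 CPM in the higher group, without predicted or clone names; others are marked where they appear. Members and lists were chosen with earlier results of these data known. Alternatives were DESeq2 1.42.0, RLE scaling, other filters, other sets of libraries and each library left out. The procedure was tested on simulated data. Other samples of the series were not analysed here. Some genes are not reported here.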

Additional observations from a re-analysis of the deposited data

How the results depend on the processing

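The 192 genes that passed kept their direction under every alternative in which they were tested, and most counts moved. DESeq2 called 614 (252 higher, 362 lower, 73 list members against 41), no filter on low counts 902 (361 and 541, 112 list members), and the 4 libraries alone 110 (31 higher, 27 list members). All 12 RNA libraries together called 0 genes, 0 higher, 0 lower and 0 list members. With 1 library left out, calls ranged from 81 to 180, 25 to 79 higher, 56 to 112 lower and 25 to 43 list members. RLE scaling called 191 and a filter of at least 5 CPM in 2 libraries 159. Calls among the higher genes made up 40.6% of all calls, 28.2% with the 4 libraries alone, 24.8% without SSC WT replicate 1 and 30.9% without SSC WT replicate 2. With the replicate number as a block, 997 passed (415 higher, 582 lower, 130 list members), all 192 among them. The labels give these numbers no meaning and there are 2 of them. Same-numbered libraries deviated together across genes (correlations of 0.38, 0.31 and 0.35 for SSC with pBCSP, SSC with BCSP and pBCSP with BCSP). On total counts, Xist was at 9.342, 12.92 and 15.15 CPM in replicate 1 of SSC, pBCSP and BCSP WT. It was at 0 in replicate 2 of each. In the same order, the Y-linked gene Ddx3y was at 74.74, 85.79 and 84.96 CPM in replicate 1. In replicate 2 Ddx3y was at 202.5, 209.4 and 147.7 CPM. Whether a number marks a shared source was not tested. The KO contrast ranged from 0 to 4482 and the genotype difference from 0 to 2962 with 1 KO library left out.

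Some genes given as not passing passed elsewhere with the same sign: Col2a1, Ihh, Runx2, Sp7, Pdgfra, Prrx1, Col5a1, Igf2, Hoxa10, Acta2 and Adipoq with the replicate block (adjusted p = 3.5e-05 to 0.0297); Col2a1, Ihh, Sp7, Pdgfra, Col5a1, Igf2, Hba-a1, Acta2 and Adipoq with no filter (2.4e-17 to 0.0449); Pdgfra, Prrx1, Col5a1, Acta2 and Adipoq in DESeq2 (0.00352 to 0.0414); and Acta2 without pBCSP WT replicate 2 (0.0389). With the 4 libraries alone, Tek, Ly6c1, Col6a6, Il1rl1, Col10a1, Alpl, Igfbp2, Igfbp6, Dkk3, S100a8, Nrarp, Dpp4, Thbs2, Rspo2, Cd34, Pi16, Osr1, Vcan, Myot, Gstm7 and I730030J21Rik did not pass (adjusted p = 0.051 to 0.109). No gene whose sign turned had passed in the WT fit, though Ihh, Sp7 and Hba-a1, whose sign turned under an alternative, passed under another. With 1 library left out, log2 differences ran over these ranges: Acan -0.35 to 0.035, Sox9 -0.063 to 0.71, Ihh -7.03 to 1.27, Sp7 -3.47 to 0.37, Col3a1 -0.0073 to 0.82, Scx -0.12 to 0.18, Axin2 -0.61 to 0.0498, Lef1 -0.20 to 0.34, Smad6 -0.033 to 0.54. The ranges were also Ptch1 -0.50 to 0.20, Hey1 -0.87 to 0.21, Pgk1 -0.10 to 0.48, Ldha -0.34 to 0.50, Mcm2 -0.13 to 0.55, Pcna -0.14 to 0.12, Mki67 -0.72 to 0.51, Cdk1 -0.13 to 0.55, Hspa1a -1.06 to 0.70. The last were Hspa1b -3.34 to 1.72, Paxip1 -0.78 to 0.19, mt-Cytb -0.00027 to 0.50, Hba-a1 -0.59 to 1.84, Hbb-bs -1.45 to 1.66, Acp5 -0.20 to 0.31, Rgs5 -1.39 to 0.59. Pcna was at -0.0099 in DESeq2 and with RLE scaling, -0.0073 with no filter and -0.022 with the 4 libraries. Cdkn1a was at 0.0052 with the 5 CPM filter, and Hspa1a and Hspa1b at -0.071 and -0.13 with the replicate block. Of the peaks, the 1 higher gene with H3K4me3 only in the SSC list became 0 with a -log10 q of at least 5 and 0 at gene starts only. The 14 higher genes with H3K27ac in the first pBCSP list became 0 and 2, and the 3 lower genes 0 at that q. Only 0.747% of all genes had such a peak at that q. At gene starts the 2 were of 54 (3.7%), against 23.5% of all genes. Except where the construction changes the genes or libraries tested, the cause was not tested. Counts near the floor of 3 limit genes at a few CPM, and 2 libraries per group limit every test.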
